A study of Mus musculus with 4 samples.

Results

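These results concern 46 interferon-stimulated genes of mouse T helper 2 (Th2) cells that lie outside the Ifit, Oas, Ifi200, Schlafen and GTPase families, among them the sensors of viral RNA. They were listed by gene symbol, and all 46 were present among the 26207 genes of the deposited table. The study's title concerns sympathetic nerves of the lung and resident memory Th2 cells, and its RNA-seq compared Th2 cells with and without dopamine, a catecholamine transmitter. The 4 bulk libraries came from Th2 cells of spleen origin. In 1 group of 2 libraries the cells received phosphate-buffered saline (PBS), and in the other group of 2 they received 10 µM dopamine. The labels used here name neither the mouse strain and age nor the length of exposure, and whether each library is a separate animal or culture is not stated. The p-values therefore cover the spread among these 4 libraries alone, and that spread may be technical. The columns carry numbers that do not match the labelled replicate numbers, so the libraries of each group are called A and B here, and the letters only name columns.

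Type I interferon binds a receptor of the chains IFNAR1 and IFNAR2, and the kinases JAK1 and TYK2 then activate STAT proteins. With IRF9 these form a complex that binds the interferon-stimulated response element (ISRE) in the promoters of many antiviral genes. RNA sensors such as RIG-I and MDA5 recognise viral RNA in the cytoplasm and lead to interferon production, and they are themselves interferon-stimulated. T cells carry a basal level of these transcripts and raise it strongly in infection.

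Most of these genes were lower in the dopamine libraries. Of the 46, 30 fell, 1 rose and 15 did not pass the threshold. Among all genes tested, 7.00% fell, 14.3% rose and 21.3% passed in either direction, so the share of these genes that fell was well above the background. The list was chosen with earlier results of these data known, so this comparison is only descriptive. The test was limma on log2(normalized count + 1) with Benjamini-Hochberg adjustment over all 26207 genes at 0.05. The median log2 fold change, dopamine minus PBS, was -0.44 over the 46 genes, against -0.08 over all genes and 0.20 over those whose mean reached 100 normalized counts. As 43 of the 46 reach that mean, the last of these medians is the closer comparison. Among such abundant genes 7.90% fell and 39.1% rose. Because of the added 1, differences of genes with low counts are understated.

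The groups did not overlap for most of the list. Both dopamine libraries lay below both PBS libraries for 33 of the 46 genes, against 30.4% of all genes and 15.4% of abundant ones. Both lay above for 2 genes, against 28.5% of all genes. All 30 genes that fell were among the 33. With the values rescaled to put the median of abundant genes near 0, the median of the 46 was -0.64, 38 of them fell and Bst2 still rose by 0.33. Over all genes, the same rescaling moved the number that fell from 1834 to 3178, so the step from 30 to 38 is not particular to the list. The 30 genes stayed lower under each of the other scalings tried. In the authors' deposited table, 26 of the 46 were lower and 1 higher at an adjusted p under 0.05. The share of all genes called in that table was not computed here. In the DESeq2 fit made here, 719 of all genes were called lower and 2542 higher, beside 26 and 1 of the 46.

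Size varied widely within the list. Of the 30 that fell, 9 fell by at least 1 on the log2 scale, 11 by at least 0.5 and under 1, and 10 by less than 0.5. The 9 were Rsad2, Rtp4, Ifitm3, Samd9l, Usp18, Ifitm1, Xaf1, Cmpk2 and Dhx58.

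**Figure D1:**
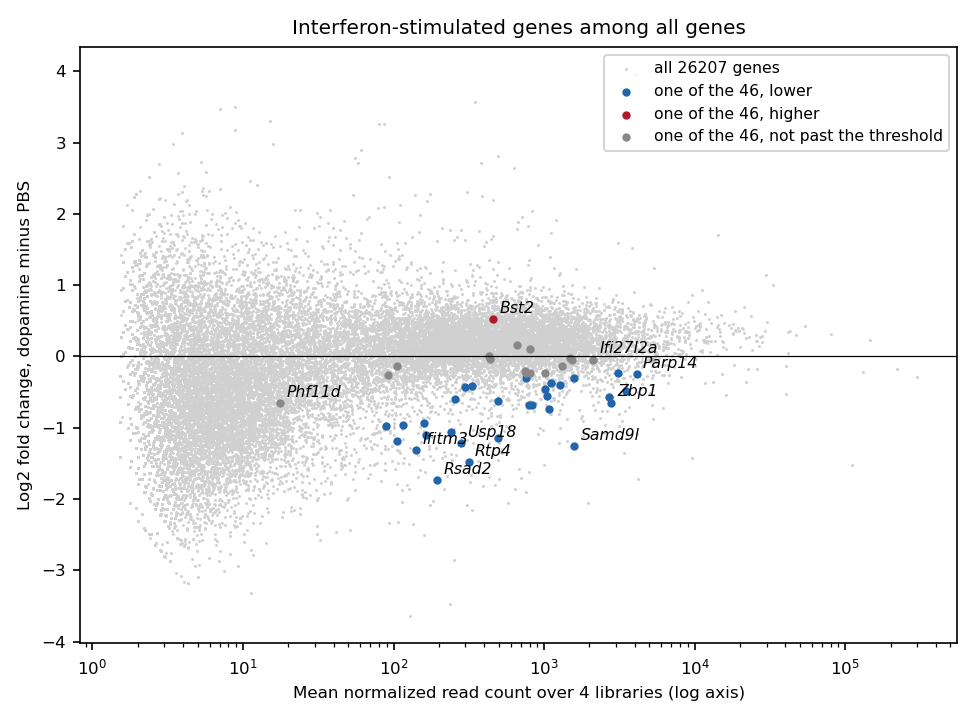
Log2 fold change (dopamine minus PBS) of each gene against its mean normalized read count over the 4 libraries, on a log axis, with all 26207 genes in grey and the 46 interferon-stimulated genes in colour. The 30 genes that fell lie below most genes of like abundance, and Bst2 is the single one that rose.

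The promoters were examined for what these genes share in sequence. RefSeq promoter windows (GRCm38.p6, the mm10 assembly, 250 bases before to 50 bases from the start site on) were at hand for 34 of the 46 genes. Windows of Usp18, Mx1, Mx2, Dhx58, Zbp1, Ifi27, Ifi27l2a, Rtp4, Parp9, Parp10, Parp14 and Tor3a were not used here. The ISRE core was searched as GAAA, any 2 bases, then GAAA, on both strands, with overlapping matches allowed. It was found in 13 of the 34 genes (38.2%), against 3.99% of the 27025 genes of the promoter table and 4.03% of its genes whose mean reached 100 here. By call, it was found in 10 of the 21 genes that fell, in the 1 that rose and in 2 of the 12 that did not pass. The GAS element, known from the response to interferon gamma and searched as TTCNNNGAA, which reads the same on both strands, was found in 8 of the 34 (23.5%), against 9.55% of all genes. Of these 8, 2 fell (Ifitm3 and Isg20), Bst2 rose and 5 did not pass. A match is a string of letters and not a measured binding site. As the ISRE lies in the promoters of many interferon-stimulated genes, its excess here follows in part from how the list was made.

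The promoters of the largest fall and of the single rise are shown whole, 5′ to 3′ on the gene's strand, with the ISRE matches in capitals. Positions are counted from the start site, which is 0. The match of Rsad2 lies at -120 to -111 of its window at chr12:26456403-26456702 (minus strand), and the overlapping pair of Bst2 at -130 to -115 of chr8:71537423-71537722 (minus strand).
Rsad2: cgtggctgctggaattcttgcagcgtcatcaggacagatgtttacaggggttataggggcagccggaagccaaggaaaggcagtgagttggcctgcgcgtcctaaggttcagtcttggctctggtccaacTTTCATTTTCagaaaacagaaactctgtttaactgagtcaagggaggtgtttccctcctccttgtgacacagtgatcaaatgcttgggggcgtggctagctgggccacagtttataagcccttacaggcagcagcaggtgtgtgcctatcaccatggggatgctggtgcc
Bst2: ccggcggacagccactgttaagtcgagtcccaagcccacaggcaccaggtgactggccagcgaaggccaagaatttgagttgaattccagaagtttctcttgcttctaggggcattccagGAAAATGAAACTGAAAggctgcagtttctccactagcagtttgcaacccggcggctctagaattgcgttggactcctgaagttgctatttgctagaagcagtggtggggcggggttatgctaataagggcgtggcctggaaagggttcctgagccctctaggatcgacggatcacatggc

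For the other 11 genes with a match, the matched bases are shown with 15 bases on each side where the window holds them. They are given to let the matches be compared between genes that fell and genes that did not pass, which are Eif2ak2 and Ifitm2.
Ifih1 (chr2:62646206-62646238, minus strand): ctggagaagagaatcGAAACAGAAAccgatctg
Ddx58 (chr4:40239799-40239838, minus strand): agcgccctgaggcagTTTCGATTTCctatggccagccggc
Isg15 (chr4:156200860-156200911, minus strand): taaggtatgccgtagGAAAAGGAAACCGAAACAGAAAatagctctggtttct
Trim21 (chr7:102565439-102565484, minus strand): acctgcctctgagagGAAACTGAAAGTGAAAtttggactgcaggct
Trim30a (chr7:104465205-104465244, minus strand): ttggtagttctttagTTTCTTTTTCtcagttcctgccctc
Trim30a (chr7:104446099-104446138, minus strand): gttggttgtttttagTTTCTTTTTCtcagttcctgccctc
Trim30d (chr7:104507866-104507905, minus strand): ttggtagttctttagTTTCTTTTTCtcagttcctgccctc
Ifitm2 (chr7:140955983-140956022, minus strand): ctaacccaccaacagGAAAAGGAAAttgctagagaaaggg
Ifitm3 (chr7:141010701-141010757, minus strand): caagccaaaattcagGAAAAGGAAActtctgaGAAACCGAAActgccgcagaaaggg
Stat2 (chr10:128270261-128270300, plus strand): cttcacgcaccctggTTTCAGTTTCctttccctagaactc
Phf11b (chr14:59341356-59341395, minus strand): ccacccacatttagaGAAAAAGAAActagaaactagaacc
Eif2ak2 (chr17:78882530-78882569, minus strand): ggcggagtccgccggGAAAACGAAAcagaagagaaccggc

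Isg15 holds 3 overlapping matches and Trim21 and Ifitm3 hold 2 each. The stretch of Trim30d is identical to that of the upstream Trim30a window, and reads of these alike, neighbouring genes may be split between them uncertainly. Of the 9 genes that fell by at least 1, 6 had a window and 2 of these, Rsad2 and Ifitm3, held a match.

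**Figure D2:**
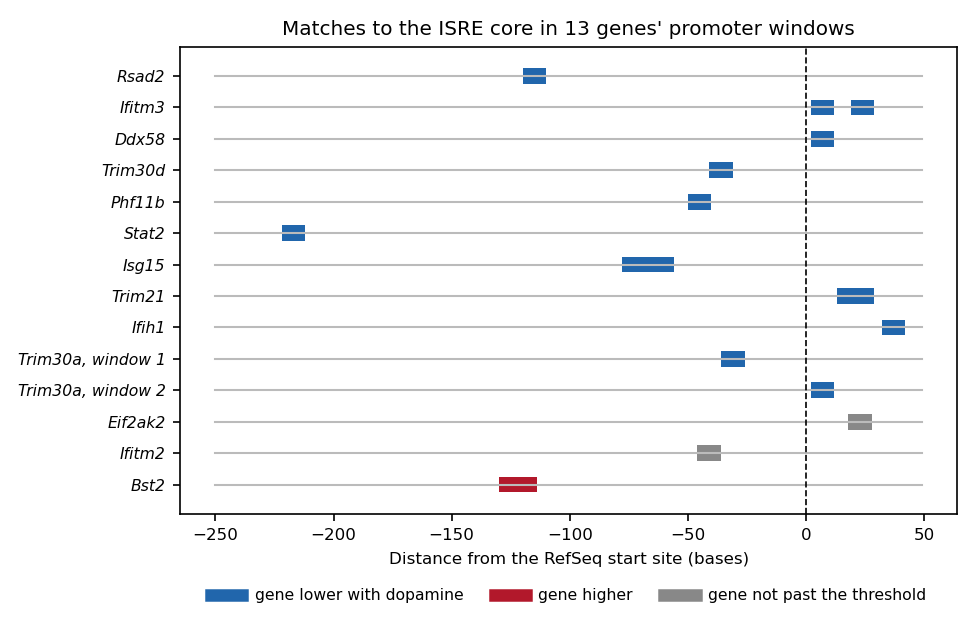
Positions of ISRE core matches (coloured blocks) relative to the RefSeq start site (0, dashed line) in the windows (grey lines) of the 13 genes that hold one, ordered by log2 fold change from the lowest. Matches lie from -222 in Stat2 to 41 in Ifih1, and genes of all 3 calls hold them.

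Among the RNA and nucleic acid sensors, 4 of 6 fell and 0 rose. Dhx58 encodes LGP2, the regulatory relative of RIG-I, and lies on chromosome 11 from 100694884 to 100704271 (mm10, GENCODE M21). It had 282 and 372 normalized counts in PBS A and B and 133 and 179 in dopamine A and B. Both dopamine libraries were below both PBS libraries, and the log2 fold change was -1.06 (SE 0.14, limma adjusted p = 7.9e-08). Ddx58, which encodes RIG-I itself, had 1252 and 1429 with PBS and 744 and 857 with dopamine (-0.74, adjusted p = 5.09e-09). Zbp1, a sensor of Z-form nucleic acid that can start necroptosis, was the most abundant of the group per length. It had 3102 and 3699 with PBS and 2078 and 2248 with dopamine (-0.65, SE 0.07, adjusted p = 1.92e-09). Ifih1, which encodes MDA5, moved least of the sensors that fell, with 776 and 896 against 674 and 672 (-0.31, adjusted p = 0.0111). Its call ended without PBS B (-0.21) or without dopamine B (-0.31). The remaining pair acts on double-stranded RNA. Eif2ak2, which encodes the kinase PKR, had a log2 fold change of -0.14 (95% interval -0.31 to 0.03) and the RNA editing enzyme Adar one of -0.23 (-0.42 to -0.05, adjusted p = 0.0558). Eif2ak2 passed as lower in 3 and Adar in 9 of the 14 settings tried.

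All 3 listed genes of the ISG15 system fell. ISG15 is a ubiquitin-like protein, HERC6 the mouse ligase that attaches it and USP18 the protease that removes it and also blocks the interferon receptor. Usp18, on chromosome 6 from 121245906 to 121270917, had 364 and 419 normalized counts with PBS and 137 and 205 with dopamine (log2 fold change -1.22, SE 0.14, adjusted p = 2.04e-09). Isg15, on chromosome 4 from 156199424 to 156200818, had 309 and 376 with PBS and 224 and 285 with dopamine. The highest dopamine value was close to the lowest PBS value, the log2 fold change was -0.43 (SE 0.13, adjusted p = 0.0101), and the call ended without PBS B (-0.29) or dopamine A (-0.26) and in DESeq2. Herc6 fell by 0.59 on the log2 scale (adjusted p = 3.29e-04).

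Of 4 TRIM genes, which encode ubiquitin ligases of antiviral defence, 3 fell. Trim30d, on chromosome 7 from 104470014 to 104507849, had 555 and 639 with PBS and 350.2 and 423 with dopamine (-0.63, SE 0.11, adjusted p = 1.06e-05). Trim30a, its neighbour and the most abundant of the 4 per length, had 3032 and 3687 with PBS and 2665 and 3017 with dopamine. Dopamine B nearly reached PBS A, and the fall of 0.24 on the log2 scale (adjusted p = 0.0169) ended without PBS B (-0.10) or dopamine A (-0.15), in DESeq2 and with a pseudocount of 0.1. Trim21, an intracellular antibody receptor, fell by 0.38 (adjusted p = 4.6e-04). Trim25, the ligase known for activating RIG-I, overlapped between groups (-0.23, 95% interval -0.42 to -0.03, adjusted p = 0.0865) and passed as lower in 7 of 14 settings.

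The ADP-ribosyltransferases followed with 4 of 5 genes lower, Dtx3l included. DTX3L is a ubiquitin ligase that works as a complex with PARP9, and their genes lie head to head on chromosome 16 with starts 681 bases apart. Parp9 had 2980 and 3455 with PBS and 2114 and 2190 with dopamine (-0.58, adjusted p = 1.74e-08). Dtx3l had 3936 and 4257 with PBS and 2805 and 3044 with dopamine (-0.49, adjusted p = 1.54e-07). The pair fell by similar amounts. Their exons overlap on opposite strands, and the sources used here do not give the strand setting of the counting. Reads of the partners may therefore not be told apart. The same holds for exons of Usp18, Dhx58, Ifi35, Eif2ak2, Adar and Sp110, which overlap other genes on the opposite strand. Exons of Rtp4, Parp10, Parp14, Herc6, Sp100, Ifitm2 and Ifnar2 overlap another gene on the same strand. Strand cannot separate the reads of those overlaps. Parp12, which encodes an antiviral enzyme that binds RNA, had the largest change of the group, from 199 and 220 to 103 and 115 (-0.94, SE 0.15, adjusted p = 2.54e-06). Parp14, a macrodomain protein on chromosome 16 from 35832874 to 35871544, had 4264 and 4690 with PBS and 3564 and 3962 with dopamine (-0.25, adjusted p = 0.00384), and that call ended without PBS B (-0.18) or dopamine A (-0.18). Parp10 overlapped between groups (-0.23, adjusted p = 0.0949).

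Antiviral effectors held both the largest fall and the single rise of the list, with 6 of 7 lower. Rsad2 encodes viperin, which makes a chain-terminating nucleotide, and lies on chromosome 12 from 26442746 to 26456452. It had 299 and 299.6 normalized counts in the PBS libraries and 85.6 and 92.2 in the dopamine libraries, 29.7% of the PBS mean. The groups were far apart, and the log2 fold change was -1.74 (SE 0.14, limma adjusted p = 2.11e-13). Cmpk2, which encodes a nucleotide kinase that feeds the reaction of viperin, starts 12752 bases from Rsad2 on the opposite strand. It had 238 and 213 with PBS and 106 and 103 with dopamine (-1.10, adjusted p = 8.51e-08). Samd9l, a translation inhibitor on chromosome 6 from 3372257 to 3399572, had 2147 and 2338 with PBS and 921 and 951 with dopamine. It fell by 1.26 on the log2 scale (SE 0.08), with the smallest adjusted p of the list (1.74e-17). Mx2 (-0.97, adjusted p = 2.08e-05) and the exonuclease gene Isg20 (-0.69, adjusted p = 9.67e-08) also fell. GENCODE M21 annotates Mx2 as a polymorphic pseudogene, so whether it encodes a working protein in these cells is not known. Mx1, the neighbour of Mx2 on chromosome 16, fell by 0.42 (adjusted p = 0.0107), which no longer passed without PBS B (-0.21) or dopamine A (-0.31) and in DESeq2.

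Bst2 encodes tetherin, which holds budding viruses at the cell surface, and lies on chromosome 8 from 71534255 to 71537456. It had 353 and 398 with PBS and 471 and 621 with dopamine, so both dopamine libraries were above both PBS libraries. The log2 fold change was 0.53 (SE 0.11, adjusted p = 3.26e-04), which became 0.44 without PBS A and 0.33 without dopamine B, neither of which passed. Abundant genes had a median of 0.20 in the same scaling. Bst2 is also a marker of plasmacytoid dendritic cells, and of the other 4 markers of these cells, 0 rose, Ccr9 fell and Siglech was at 0 to 4.6 normalized counts. Without Bst2, the summed level of these 4 was 216 and 258 with PBS and 142 and 168 with dopamine, and with it 569 and 657 against 613 and 789. Most of the sum without Bst2 came from Tcf4, with 144 and 175 in PBS and 127 and 147 in dopamine libraries. Ccr9 added 66.2 and 75.9 with PBS and 9.26 and 15.5 with dopamine. The part of such cells in the level of Bst2 was not tested.

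The IFITM proteins, which block the fusion of enveloped viruses, differed from gene to gene within 1 cluster on chromosome 7. Ifitm3, from 141009586 to 141010770, had 204 and 201 with PBS and 85.6 and 75.7 with dopamine (log2 fold change -1.32, SE 0.16, adjusted p = 6.17e-09). Ifitm1 had 158 and 136 with PBS and 67.1 and 61.2 with dopamine (-1.18, SE 0.17, adjusted p = 7.43e-07). Both genes fell with no overlap between groups. Ifitm2 starts 11234 bases from Ifitm1 and had 132 and 88.9 with PBS and 106 and 93.2 with dopamine. Its groups overlapped (-0.13, 95% interval -0.49 to 0.23, adjusted p = 0.664). That interval does not reach the values of Ifitm1 and Ifitm3, but the difference between the genes was not tested. Their sequences are alike, so reads may be divided between them uncertainly.

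Of 5 receptor and signalling genes, 1 fell and 0 rose. Stat2, the STAT protein of the ISRE complex, had 1038 and 1324 with PBS and 798 and 912 with dopamine (-0.46, SE 0.09, adjusted p = 1.78e-04), which no longer passed without PBS B (-0.28). Ifnar1, the receptor chain on chromosome 16 from 91485238 to 91507441, had 1451 and 1561 with PBS and 1460 and 1499 with dopamine. The libraries interleave, and the log2 fold change was -0.02 (95% interval -0.18 to 0.13, adjusted p = 0.854). Ifnar2 had 442 and 418 with PBS and 438 and 424 with dopamine (0.01, -0.20 to 0.22). The interferon-induced partner proteins Nmi (0.10, -0.08 to 0.28) and Ifi35 (0.16, -0.04 to 0.35) did not pass either. A p that misses the threshold does not show equal levels, and Ifnar1 passed as lower with upper-quartile scaling and when scaled on abundant genes.

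Of 5 genes for nuclear proteins, 3 fell. Sp100, a component of PML nuclear bodies on chromosome 1 from 85649988 to 85709998, had 1668 and 1806 with PBS and 1405 and 1409 with dopamine (-0.30, SE 0.08, adjusted p = 0.00234), which no longer passed without PBS B (-0.25). Its neighbour Sp110 did not pass (-0.04, 95% interval -0.20 to 0.11). Phf11b, a PHD finger gene, had 1106 and 1393 with PBS and 802 and 887 with dopamine (-0.56, adjusted p = 5.48e-06). Phf11d, its relative on chromosome 14, had the lowest counts of the list, 23.8 and 19.9 with PBS and 11.6 and 15.5 with dopamine. That is 14 reads in PBS A, and although the groups did not overlap, the difference (-0.66, 95% interval -1.41 to 0.09, adjusted p = 0.219) was not detectable at this depth. Helz2, a nuclear receptor coactivator with helicase domains, fell by 0.40 (adjusted p = 6.56e-04), which no longer passed without PBS B (-0.24) and in DESeq2.

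Of the 8 remaining genes, 4 fell. Rtp4, a chaperone of membrane receptors that also acts against viruses, lies on chromosome 16 from 23520291 to 23614222 and had 403 and 523 with PBS and 136 and 198 with dopamine (-1.48, SE 0.14, adjusted p = 1.07e-11). Xaf1, which encodes an antagonist of the apoptosis inhibitor XIAP, had 612 and 745 with PBS and 278 and 334 with dopamine (-1.15, SE 0.11, adjusted p = 2.51e-11). Ifi44 (-0.98, adjusted p = 6.46e-05) and Ifi27 (-0.68, adjusted p = 8.5e-08) also fell. Ifi27l2a starts 9469 bases from Ifi27 and had the highest level per length of all 46 genes, 4630 normalized counts per kilobase of exon with PBS and 4480 with dopamine. Its counts were 1862 and 2424 with PBS and 1824 and 2323 with dopamine. The groups overlap almost fully (-0.05, 95% interval -0.23 to 0.13, adjusted p = 0.762). Epsti1 (-0.21, adjusted p = 0.139), Tor3a (-0.26, adjusted p = 0.316) and Lgals3bp (-0.03, adjusted p = 0.877) did not pass.

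**Figure D3:**
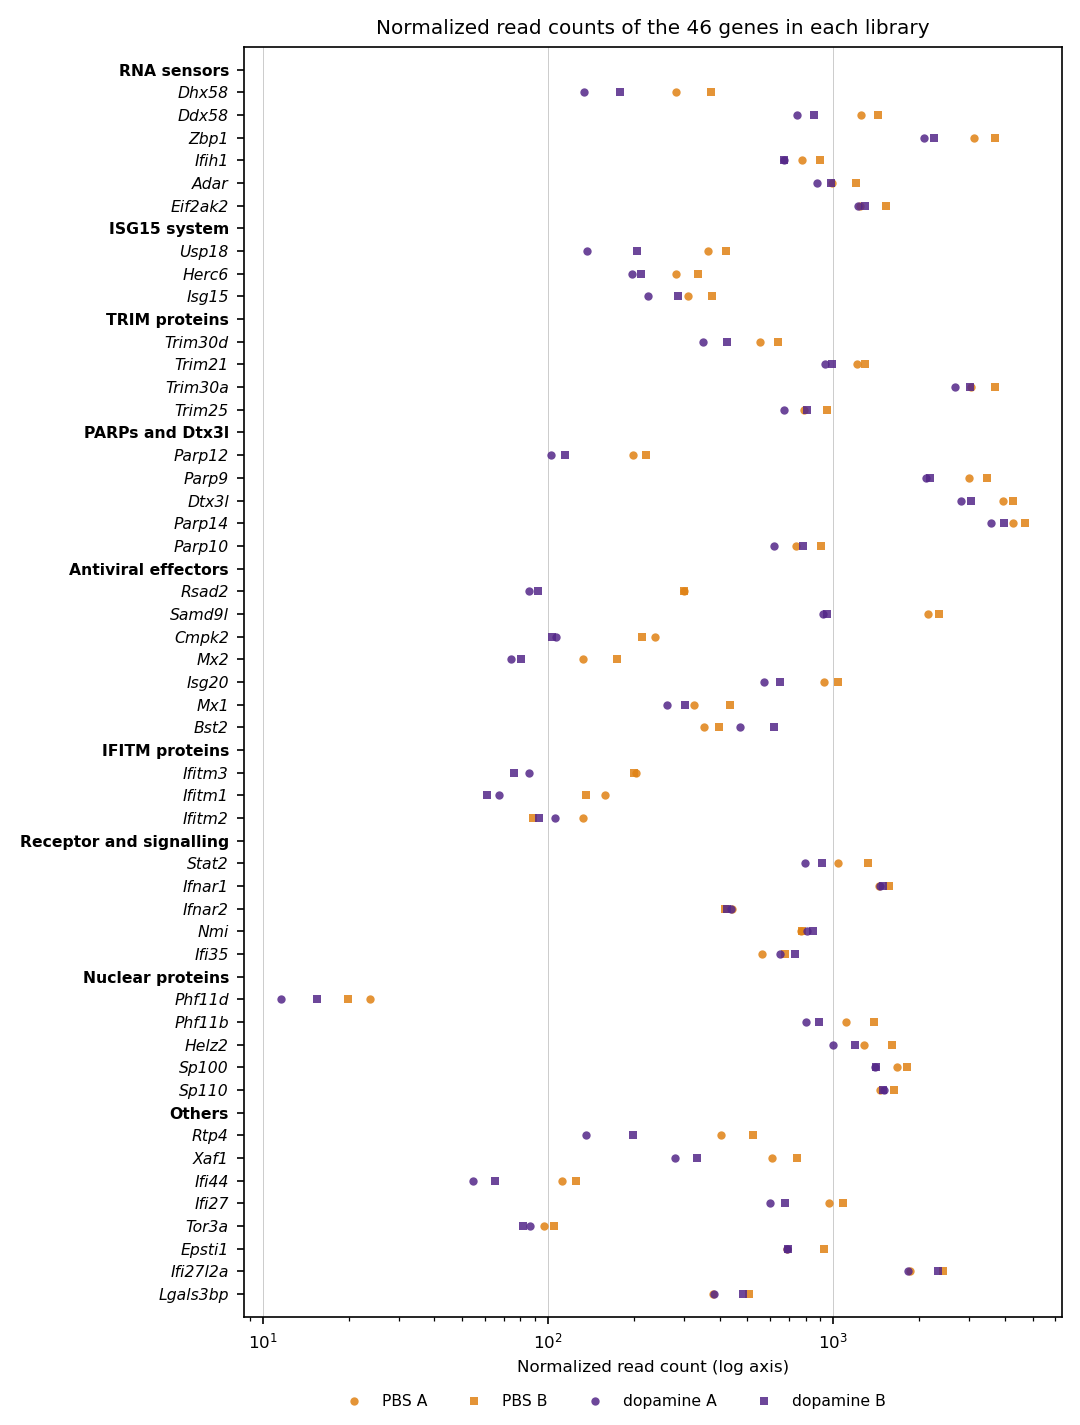
Normalized read count of each of the 46 genes in each library on a log axis, by role. PBS libraries are orange and dopamine libraries purple, with circles for A and squares for B. For Rsad2 and Samd9l the colours are widely separated, while for Ifnar1, Ifnar2 and Ifi27l2a they mix.

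**Figure D4:**
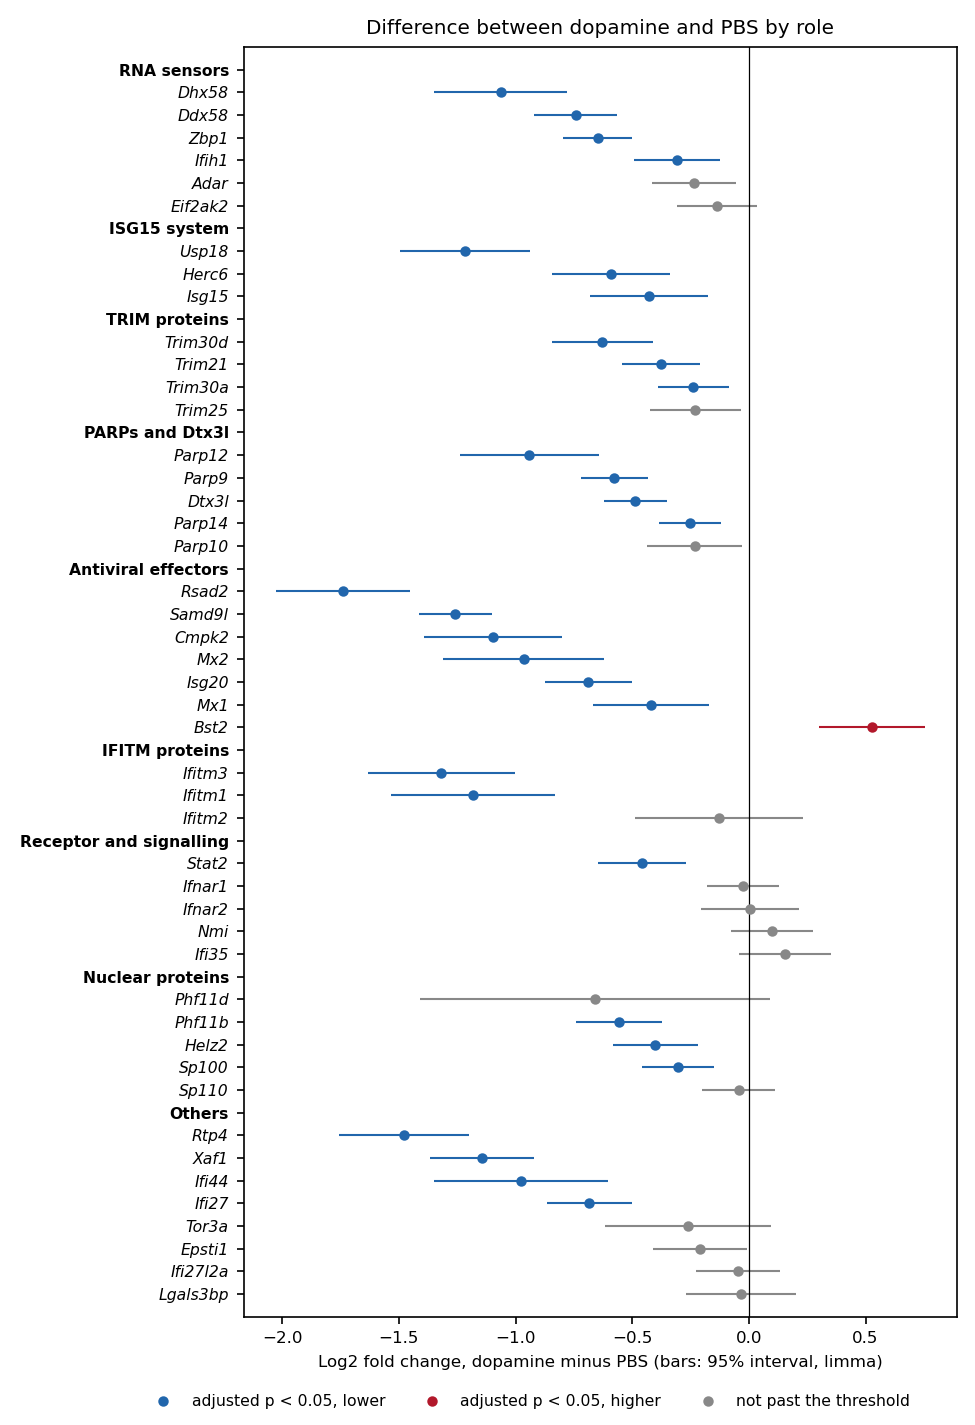
Log2 fold change (dopamine minus PBS) of each of the 46 genes with its 95% interval from limma, by role, with 2 libraries per group. Blue marks genes that fell, red the gene that rose and grey those that did not pass an adjusted p of 0.05.

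Libraries of a group differed in a common direction. PBS B was above PBS A for 40 of the 46 genes, with a median log2 difference of 0.20, and dopamine B was above dopamine A for 38, with a median of 0.16. Among all abundant genes these shares were 70.1% and 65.2%, with medians of 0.07 and 0.05. Between single libraries the widest gap was that of dopamine A to PBS B, with 42 of 46 genes lower and a median log2 difference of -0.72. Without PBS B 22 genes fell in place of 30, and the 8 that no longer passed were Isg15, Mx1, Stat2, Ifih1, Parp14, Trim30a, Sp100 and Helz2. Taken singly, dopamine B, the higher dopamine library, was below PBS A, the lower PBS library, for 35 of the 46 genes, with a median log2 difference of -0.30. For these pairs of single libraries no share over all genes was computed, so their counts describe the list without a background. The 22 genes that still passed without PBS B did so as lower in all 13 alternatives tried.

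The rest of the pathway was examined with lists of other genes. All 6 Ifit family genes in the table fell, with a median log2 fold change of -1.68, and 5 of 8 Oas family genes fell, with a median of -0.74 over the 8. In both families 0 genes rose. The transcripts of type I interferons were near the limit of detection. Ifnb1 had 1.7 and 10.7 normalized counts with PBS and 0 and 1.94 with dopamine, which is 1 and 14 reads against 0 and 2. The PBS libraries differed widely from each other, and no difference between groups was detectable at this depth (adjusted p = 0.164). Ifng, which encodes the type II interferon, rose from 61.2 and 59.0 to 239 and 244 (1.99, adjusted p = 9.63e-14).

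Of 12 genes in the signalling chain, all of them abundant, 2 fell and 5 rose, a share of rises near the 39.1% of abundant genes. Irf7, the interferon-induced amplifier of interferon transcription, had 476 and 742 with PBS and 224 and 292 with dopamine (-1.21, adjusted p = 8.27e-10). Ifngr1, a chain of the interferon-gamma receptor, fell (-0.76). The feedback inhibitor Socs1 (0.61), the kinase gene Tyk2 (0.39) and the factors Irf8 (1.15), Irf3 (0.33) and Irf1 (0.20) rose. When scaled on abundant genes Irf8 (0.95) and Socs1 (0.41) still passed, while Tyk2 (0.20), Irf3 (0.14) and Irf1 (0.00) did not. Of 15 adaptors and further sensors 1 fell (Zc3hav1, -0.22) and 2 rose (Myd88, 0.40, and Traf3, 0.38), of which neither passed when scaled on abundant genes (0.21 and 0.18). Mavs, the adaptor shared by RIG-I and MDA5, had 189 and 211 with PBS and 195 and 223 with dopamine (0.07, 95% interval -0.20 to 0.34).

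**Figure D5:**
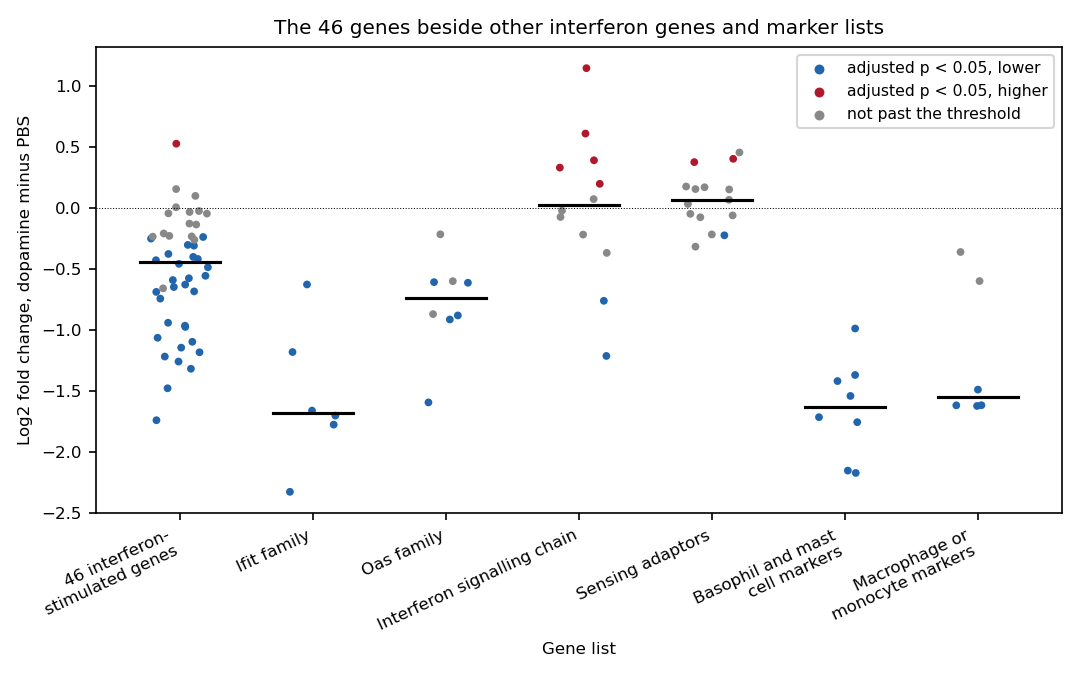
Log2 fold change (dopamine minus PBS) of the 46 genes beside the Ifit and Oas families, the interferon signalling chain and sensing adaptors. Markers of basophils and mast cells and of macrophages or monocytes, whose medians lay below 0, are also drawn. Those of the remaining cell types are not drawn and moved in both directions, with medians from -2.23 (red cell) to 1.27 (B cell). Each point is a gene, coloured by its call, black bars are medians and the horizontal scatter has no meaning. The medians are -0.44 for the 46 genes, -1.68 for Ifit, -0.74 for Oas, 0.02 for the signalling chain and 0.07 for the adaptors.

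Depth was 5717408 to 14167357 reads assigned to genes per library, with PBS A the shallowest. Of 6 helper T cell markers, all of them abundant, Cd3d (0.25), Cd3g (0.24) and Trbc2 (0.235) rose and Trac (-0.27) fell. These rises were near the median of 0.20 of abundant genes, of which 39.1% rose. Cd4 was at 4236 to 4749 normalized counts. Of 6 Th2 markers, Il4 (2.19), Il13 (1.61), Il5 (1.51) and Ccr4 (0.53) rose and Il1rl1 (-0.91) fell, and Gata3 was at 207 to 243. Markers of other cells moved in both directions. All 8 basophil and mast cell markers fell, and their summed level was 2056 and 2410 with PBS and 612 and 704 with dopamine. Of the macrophage or monocyte markers 4 of 6 fell (summed level 194 to 205 with PBS and 89.5 to 92.2 with dopamine). All 5 platelet, 3 of 5 neutrophil and 2 of 3 red cell markers fell, and 3 of 5 B cell markers rose. Of 2 CD8 T cell markers Cd8a rose (1.96), from a mean of 27.5 normalized counts with PBS to 109 with dopamine. Of 3 natural killer cell markers Eomes rose (1.08), and of 5 dendritic cell markers 1 fell and 4 did not pass. None of these markers was at 0 in all libraries. The part of such cells in the falls reported above was not tested, and in bulk RNA fewer cells of a type and less RNA per cell cannot be told apart.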

How the data were processed

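RNA-seq was made from 2 PBS and 2 dopamine libraries of Th2 cells. Per the labels' protocols, RNA was extracted with RNeasy and the TruSeq Stranded mRNA kit was used for libraries. Per the submitters' processing notes, FastQC 0.11.2, TopHat2 2.0.13, HTSeq 0.6, DESeq2 and R 3.6.2 were used with mm10, and the annotation is not given in the sources used here. The authors deposited normalized counts, a signal in which 100% of values are whole multiples of 1 read within 0.01, 1 read being worth 0.766 to 1.70. The authors also deposited log2 fold changes, p-values and a test statistic (a score per gene, not used) of their own comparison. Columns were matched to groups only.

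The test was limma 3.58.1 (trend) in R 4.3.3 on log2(normalized count + 1) over all 26207 genes, with Benjamini-Hochberg adjustment at 0.05. With 2 libraries a group, its spread is drawn largely from other genes (42.4 prior degrees of freedom). Scripts were tested on simulated data. The alternatives were edgeR 4.0.16 and DESeq2 1.42.0 on recovered whole reads (edgeR with TMM called 5219 genes, 35 of the 46 as lower, and DESeq2 called 26 of the 46 as lower), other scalings, a pseudocount of 0.1, only genes whose mean reached 20, a replicate block and leaving out each library. Gene positions come from GENCODE M21 (mm10) and levels per length use merged exons.

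The genes and lists were chosen with earlier results of these data known. Values in every library are given, per role, for the largest change, the largest mean and any gene against its group's direction, and for some others chosen after their values were seen. Some further genes of the pathway lists are not reported here.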

Additional observations from a re-analysis of the deposited data

How the results depend on the processing

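None of the 31 called among the 46 genes changed direction under the 13 alternatives tried. The number of all genes called was 5577 in the limma fit and 3261 with DESeq2, and 2914 to 4299 when 1 library was left out. The number of the 46 genes called lower ranged from 22 without PBS B to 40 with upper-quartile scaling, and 5 (Ifi35, Phf11d, Ifitm2, Ifnar2 and Nmi) were called in no setting. The number called higher was 0 to 1 when 1 library was left out, since Bst2 no longer passed without PBS A or dopamine B; such fits rest on 1 library in an arm, assumed to vary like the others. Over all genes the split of calls moved from 3743 higher and 1834 lower to 1806 and 3178 when scaled on abundant genes, 2013 and 3149 with edgeR and upper-quartile scaling, and 2793 and 2426 with edgeR, TMM and its filter on low counts. With edgeR and TMM but no filter it was 3629 and 1908. With a replicate block on the column number, 34 of the 46 genes were called lower. Same-numbered libraries deviated together with a correlation of 0.214 over abundant genes, but with 2 pairs they share only a number. The causes of these differences were not tested. Depth limits Phf11d and Ifnb1.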
